A study of Mus musculus with 3 samples.

Results

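A set of 7 genes encoding surface antigens of epithelial and progenitor cells was followed in 3 mammary tumours of NDL(UCD), an ErbB2-model tumour cell line that grows on transplantation into mice. They were taken by symbol and all 7 were found among the 21881 gene symbols of each expression table. They are Epcam, Cd24a, Prom1, Ly6a, Ly6c1, Ly6d and Ly6e. Each tumour grew from cultured cells of the same line injected into the uncleared mammary fat pads of a different female FVB/NJ mouse aged 6 to 8 weeks, and was snap-frozen at a width of 5 to 10 mm. The NDL model is known for an activated Neu (Erbb2) transgene driven by a mammary tumour virus promoter that is active in mammary epithelium. The hosts keep their own mammary epithelium, fat, vessels and immune cells, so a bulk tumour holds host cells beside the line. The 3 tumours form a single group, for which the labels name no treatment, with no normal gland or other tumour line analysed beside them. The comparisons are therefore between genes within a tumour and between the 3 tumours, which are biological replicates of a single line.

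Epcam (CD326) is a homophilic adhesion glycoprotein of simple epithelia, and Cd24a is a small, heavily glycosylated protein held in the membrane by a glycosylphosphatidylinositol (GPI) anchor. Antibodies to both are used to sort mammary epithelial cells. Prom1 encodes prominin-1 (CD133), a cholesterol-binding protein of membrane protrusions that is used as a marker of progenitor cells in several tissues. The Ly6 genes encode short GPI-anchored proteins with a cysteine-rich fold. Ly6a encodes Sca-1, a marker of mouse haematopoietic stem cells that is also present on endothelial cells, T cells and some fibroblasts. Ly6c1 encodes a form of Ly-6C, known from monocytes, endothelium and T-cell subsets. Ly6d (ThB) is known from keratinocytes and from lymphoid progenitors of the B lineage. Ly6e (Sca-2, TSA-1) is expressed widely and serves as the receptor of syncytin A in the mouse placenta. Ly6a, Ly6c1 and Ly6e are inducible by interferon.

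The 4 Ly6 members lie within 286775 bp of chromosome 15 on mm9, and some members of this cluster are close copies of each other. That matters for values assigned by sequence, so the start of the coding sequence is shown for Ly6a, Ly6c1 and their nearest copies Ly6i and Ly6c2. Capitals mark the bases that differ from Ly6a. Each line gives the first 150 coding bases, 5′ to 3′, of the longest protein-coding GENCODE vM21 transcript (GRCm38, chromosome 15, minus strand), joined across an intron.
Ly6a: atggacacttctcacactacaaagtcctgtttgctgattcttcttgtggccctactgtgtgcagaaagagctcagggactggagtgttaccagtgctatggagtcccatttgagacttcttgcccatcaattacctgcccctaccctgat
Ly6i: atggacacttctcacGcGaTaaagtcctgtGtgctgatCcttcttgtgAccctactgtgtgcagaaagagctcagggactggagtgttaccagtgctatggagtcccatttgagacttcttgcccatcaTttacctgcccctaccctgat
Ly6c1: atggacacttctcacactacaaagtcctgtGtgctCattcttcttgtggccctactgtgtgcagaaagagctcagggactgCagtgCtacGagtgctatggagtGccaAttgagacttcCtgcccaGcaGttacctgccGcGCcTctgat
Ly6c2: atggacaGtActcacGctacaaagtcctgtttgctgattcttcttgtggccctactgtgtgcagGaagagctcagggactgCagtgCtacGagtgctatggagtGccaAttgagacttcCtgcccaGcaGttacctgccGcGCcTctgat
Ly6i differed from Ly6a at 7 of these 150 bases, Ly6c1 at 14 and Ly6c2 at 16. Over the whole coding sequence Ly6c1 and Ly6c2 were 97.7% identical, Ly6i and Ly6a 86.3%, and Ly6c1 and Ly6a 81.8%. Ly6e and Ly6d stood apart, at 54.7% and 53.0% identity to Ly6a.

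The share of each transcript that cannot be told from another gene was measured with windows of 50 bases, a length chosen here because no label or header states the read length. None of the 1991 windows of Epcam, 4040 of Prom1, 2232 of Ly6e or 695 of Ly6d occurred in a transcript of another gene. Cd24a shared 3.90% of its windows, all with Gm6212. Ly6a shared 10.04%, with Ly6c1 and Ly6i leading. Ly6c1 shared 36.7%, of which 252 of 292 windows were shared with Ly6c2. The values of Ly6c1, and to a lesser degree of Ly6a, are therefore uncertain wherever fragments were split between copies, and each is also given below summed with its copies.

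Ly6e was the most abundant of the 7 transcripts. Its deposited values were 321, 430.4 and 406 FPKM in tumours 1, 2 and 3, a mean of 386 ± 57.5 FPKM (SD, n = 3). FPKM scales fragments to transcript length and to library size, so levels of different genes can be compared within a tumour. Ly6e ranked 101 among the 18028 symbols listed above 0 in at least 1 tumour and lay above the 99th percentile in every tumour (99.47, 99.43 and 99.42). It was lowest in tumour 1, by a factor of 1.34 below tumour 2.

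Epcam and Cd24a came next. Epcam was listed at 205, 202 and 198 FPKM, a mean of 202 ± 3.74 FPKM (SD, n = 3) and rank 197. Its coefficient of variation was 1.85%, against a median of 27.9% over the 11193 symbols that averaged 1 FPKM or more, and the deposited intervals of the highest and lowest tumour just overlapped (201.4 to 209 FPKM in tumour 1 and 194 to 202 FPKM in tumour 3). Cd24a was listed at 197, 176 and 107 FPKM, a mean of 159.8 ± 46.9 FPKM (SD, n = 3) and rank 249. Tumours 1 and 2 were close in Cd24a and tumour 3 was low. Ly6e, Epcam and Cd24a together made up 94.5%, 92.7% and 93.9% of the summed FPKM of the 7 genes in tumours 1, 2 and 3.

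Prom1 was lower, at 31.1, 32.8 and 14.6 FPKM, a mean of 26.1 ± 10.05 FPKM (SD, n = 3) and rank 1532. As with Cd24a, tumours 1 and 2 were close and tumour 3 was low. Ly6a was listed at 7.17, 12.05 and 22.9 FPKM, a mean of 14.04 ± 8.04 FPKM (SD, n = 3) and rank 2851. Here tumour 3 was the highest and tumour 1 the lowest, with deposited intervals that did not overlap between any 2 tumours.

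Ly6d and Ly6c1 were the lowest. Ly6d was listed at 1.25, 16.1 and 3.90 FPKM, a mean of 7.07 ± 7.90 FPKM (SD, n = 3), so its SD exceeded its mean. Tumour 2 alone was high, and its value rested on 222 implied fragments against 18.0 in tumour 1 and 60.0 in tumour 3. Ly6c1 was listed at 2.50, 2.39 and 4.53 FPKM, a mean of 3.14 ± 1.20 FPKM (SD, n = 3) on 42.7 to 89.7 implied fragments per tumour, with tumour 3 the highest. For comparison, the median symbol among the 18028 listed above 0 in at least 1 tumour had a mean of 2.44 FPKM.

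**Figure D1:**
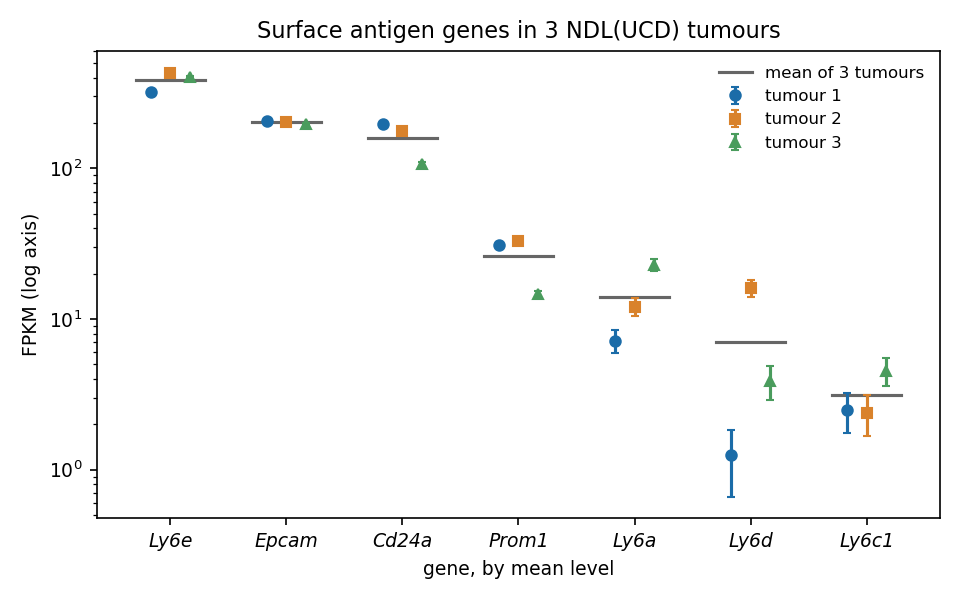
FPKM of the 7 genes in each tumour on a log axis, ordered by mean level. Points are tumours with the deposited interval as error bars, where it is wider than the symbol, and grey lines are means. Ly6e, Epcam and Cd24a lie between 107 and 430.4 FPKM in every tumour, and Ly6d has the widest spread, 1.25 to 16.1 FPKM.

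All 7 genes were above 1 FPKM by limma with Benjamini-Hochberg adjustment over all 18028 symbols, where 54.2% of symbols were (9778 above and 5864 below 1 FPKM). With every library scaled to a common FPKM total, 11636 symbols were above and 4208 below. The adjusted p was 1.1e-07 for Ly6e, Epcam and Cd24a, 7.2e-07 for Prom1, 1.1e-05 for Ly6a, 0.00087 for Ly6c1 and 0.041 for Ly6d. The call of Ly6d was the weakest. It was lost with a pseudocount of 0.01 (limma adjusted p = 0.092), with other filters on low values and without any 1 of the 3 tumours (adjusted p of 0.067 to 0.073).

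The order of the levels was Ly6e, Epcam, Cd24a, Prom1, Ly6a, Ly6d and Ly6c1. Each of the 21 pairs was compared by the difference of log2(FPKM + 0.1) within a tumour. The same sign was seen in all 3 tumours for 18 pairs. Flipping the signs of 3 differences exactly (a permutation test, two-sided) cannot give a p under 0.25 (0.29 adjusted over the 21 pairs), so it can separate no pair. limma, fitted over all genes minus the member, called 16 pairs with either member as the reference. The share of all symbols called in such a fit depended on the member: 99.1% of symbols were called higher or lower than Ly6e, 98.3% than Epcam, 97.2% than Cd24a, 83.9% than Prom1, 75.3% than Ly6a, 76.2% than Ly6c1 and 35.3% than Ly6d. The spread of the shared member enters every gene of such a fit, so its p-values are too small for a member that varies between tumours.

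Among the 6 pairs that are neighbours in this order, 2 were called. Ly6e exceeded Epcam by 0.92 ± 0.24 log2 units (SD, n = 3; 1.90-fold), with limma adjusted p-values of 0.0083 and 0.0014. The excess was seen in 3 of 3 tumours, but the call was lost without tumour 2 (0.84 log2 units) and without tumour 3 (0.87 log2 units). Cd24a exceeded Prom1 by 2.65 ± 0.22 log2 units (6.27-fold), with limma adjusted p-values of 5.7e-05 and 4.0e-08. The Cd24a to Prom1 ratio was among the steadier of the set, at 6.33, 5.37 and 7.35 in tumours 1, 2 and 3.

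The other neighbours were not separated beyond their spread. Epcam minus Cd24a was 0.38 ± 0.44 log2 units, since the genes were nearly equal in tumours 1 and 2 (ratios of 1.04 and 1.15) and differed 1.85-fold in tumour 3. Prom1 minus Ly6a was 0.96 ± 1.43 log2 units and changed sign. Prom1 was 4.33 and 2.72 times Ly6a in tumours 1 and 2 but 0.636 times Ly6a in tumour 3, and the pair was called without tumour 3 (1.77 log2 units). Ly6a minus Ly6d was 1.51 ± 1.67 and Ly6d minus Ly6c1 was 0.51 ± 1.92 log2 units (SD, n = 3 each). Ly6d was the higher gene of each of these last pairs in tumour 2 only.

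The Ly6 members were then set beside the genes around them on mm9. Ly6e lies on chromosome 15 at 74785481 to 74790335, Ly6a at 74825307 to 74828318, Ly6c1 at 74875445 to 74879260 and Ly6d at 74592486 to 74593997. The other members lie elsewhere, Epcam on chromosome 17 at 88035319 to 88050467, Cd24a on chromosome 10 at 43298975 to 43304071 and Prom1 on chromosome 5 at 44384861 to 44492975. Within 100000 bp of a Ly6 member lay 18 other genes. None of them was above 1 FPKM by limma, 6 were below it, 5 were not separated from it and 7 were listed at 0 in all 3 tumours. Over all 18028 tested symbols 54.2% were above and 32.5% below, and a further 3671 symbols were listed at 0.

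The highest of those 18 was Lynx1, a modulator of nicotinic receptors, at 1.72 ± 0.698 FPKM (SD, n = 3). The mean of Ly6e was 224 times that of Lynx1. Jrk (1.46 FPKM) and Ly6c2 (1.43 FPKM) followed. The genes next to Ly6e were 2010109I03Rik, 73347 bp away at a mean of 0.0323 FPKM, and Ly6i, 19907 bp away at a mean of 1.00 FPKM. Psca, Slurp1, Lypd2 and Gml, which belong to the same protein family, were listed at 0 in all 3 tumours.

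**Figure D2:**
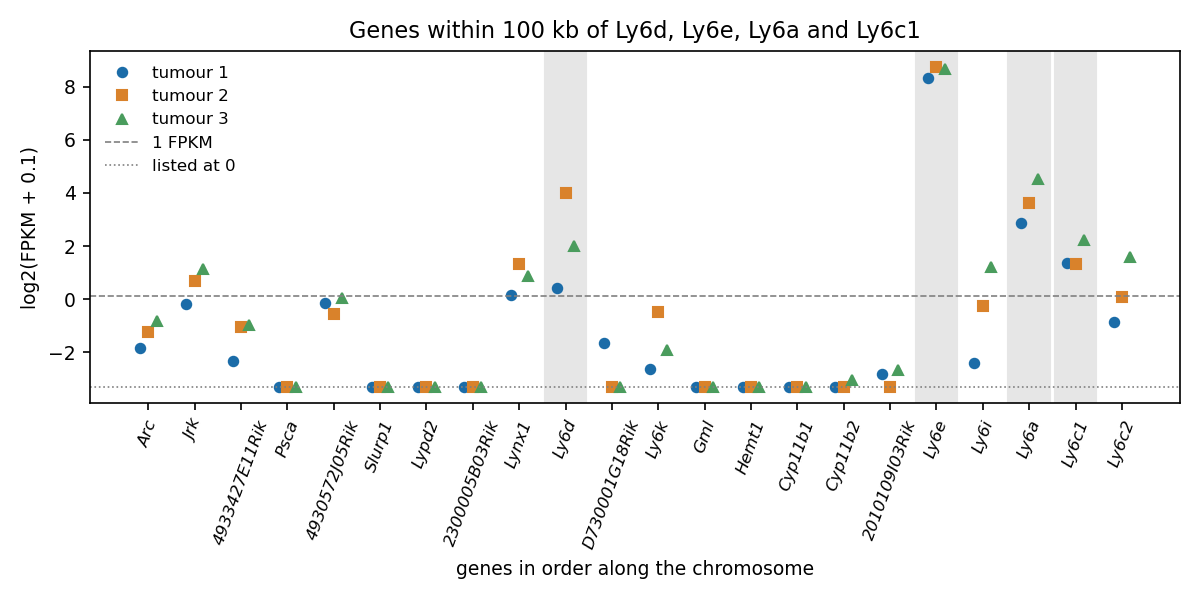
Genes within 100000 bp of the 4 Ly6 members, in order along the chromosome, as log2(FPKM + 0.1) per tumour. Shaded columns are the members, the dashed line is 1 FPKM and the dotted line is the place of a gene listed at 0. Ly6e stands far above all its neighbours, and Ly6i, Ly6a, Ly6c1 and Ly6c2 have their highest point in tumour 3.

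Beyond the members, 26 of 28 further genes of the Ly6/uPAR family were found. Of these, 5 were above 1 FPKM, 8 below, 5 not separated and 8 listed at 0. Of the 18028 tested symbols, 54.2% were above and 32.5% below. The median was 0.0677 FPKM over the 26, those listed at 0 included. The median of 2.44 FPKM over tested symbols leaves out 3671 symbols listed at 0 in all tumours, so the medians are not over like sets. The highest were Cd59a and Cd59b, inhibitors of complement lysis, at 28.7 ± 8.63 and 3.43 ± 0.301 FPKM, and Ly6g6e at 3.31 ± 0.907 FPKM (SD, n = 3 each). Cd59a was the only one of the 26 with a mean above that of Ly6a.

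To compare the tumours, Cochran's Q was computed from the deposited standard errors of every gene, and a ratio of at least 2 between the highest and lowest tumour was required. This compares 3 tumours, not conditions. Prom1, Ly6a and Ly6d passed, 3 of the 7 genes, against 32.5% of the 11058 symbols with a mean of at least 1 FPKM. At 42.9% this share of a set of 7 is close to that of all genes, and nothing is read from it. Without the requirement on the ratio all 7 passed, as did 91.6% of symbols. For the members, values with trends of GC content and transcript length removed are given beside those deposited.

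Ly6d had the widest range, 12.8-fold between tumours 2 and 1 (Cochran's Q adjusted p = 5.9e-40). With the trends removed its values were 1.79, 14.5 and 3.00 FPKM, an 8.09-fold range. Of all symbols, 2.72% passed with tumour 2 highest and tumour 1 lowest. The neighbouring gene Ly6k had the same order, at 0.0596, 0.619 and 0.167 FPKM. Ly6k was below 1 FPKM by limma and too low to enter the test between tumours. Its value in tumour 1 was near the level of 3 fragments at the median locus (0.0433 FPKM). The summed level of keratinocyte and basal markers was 4.18, 12.9 and 2.89 FPKM (5.76, 11.7 and 2.26 FPKM with the trends removed). Of the 7 listed above 0, 2 were highest in tumour 1, 2 in tumour 2 and 3 in tumour 3. Krt14, at 2.80, 10.4 and 1.07 FPKM, made up most of the deposited sum in tumours 1 and 2 but not in tumour 3. Krt5 stayed under 0.16 FPKM in every tumour and Lor and Ivl were listed at 0. B-lymphoid markers summed to only 1.08, 1.19 and 1.4997 FPKM, with Pax5 and Igll1 listed at 0. The part of either cell type in the level of Ly6d was not tested.

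Ly6a differed 3.19-fold between tumours 3 and 1 (Cochran's Q adjusted p = 6.2e-35) and 2.57-fold with the trends removed (8.30, 11.2 and 21.3 FPKM). Of all symbols, 12.4% passed with tumour 3 highest and tumour 1 lowest. Leaving out tumour 1 or tumour 3 brought the ratio under 2, to 1.90 and 1.68. Ly6c1 reached 1.89-fold between tumours 3 and 2 and did not pass the ratio, as 0.823% of symbols did in that direction. Tumours 1 and 2 were close in Ly6c1 (ratio of 1.04), so the 12.4% that passed with tumour 1 lowest applies as well. With the trends removed Ly6c1 was at 3.15, 2.19 and 3.93 FPKM. Its near-copy Ly6c2 was at 0.456, 0.966 and 2.88 FPKM, and the sum of both was 2.96, 3.36 and 7.41 FPKM, a 2.51-fold range (2.15-fold with the trends removed). Ly6i, at 0.0895, 0.733 and 2.19 FPKM, was also highest in tumour 3. Ly6a, Ly6i, Ly6c1 and Ly6c2 added up to 10.2, 16.1 and 32.5 FPKM.

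The genes are known from several host cell types, and bulk RNA cannot tell fewer cells of a type from less RNA per cell. The counts above 1 FPKM that follow stand against 54.2% of all symbols. Monocyte and macrophage markers, all 13 of them above 1 FPKM, summed to 276, 492 and 974 FPKM in tumours 1, 2 and 3. The sum was 3.53-fold higher in tumour 3 than in tumour 1. Lyz2 alone was at 146, 230 and 602 FPKM, and 9 of the 13 were highest in tumour 3 and lowest in tumour 1. T-cell markers summed to 6.98, 9.30 and 16.2 FPKM with 2 of 10 above 1 FPKM. Of the 10, 8 were highest in tumour 3 and lowest in tumour 1, whereas Cd247 was at 4.56, 3.14 and 3.33 FPKM. Neutrophil markers summed to 5.37, 14.2 and 31.7 FPKM with 2 of 7 above 1 FPKM and Elane listed at 0. Endothelial markers, 7 of 13 above 1 FPKM, summed to 24.5, 37.1 and 37.3 FPKM, and fibroblast markers, 8 of 9 above, to 267, 350.4 and 292 FPKM. The monocyte and macrophage, T-cell, neutrophil and endothelial sums had the order of tumours seen for Ly6a. With the trends removed the first 3 lists kept that order, and the endothelial sums were 30.2, 34.6 and 31.7 FPKM, highest in tumour 2. The order was not particular to these host cell lists. The lists of EpCAM partners (396, 451 and 460 FPKM) and CD24 partners (29.7, 44.2 and 46.6 FPKM), described below, had it too. So did the B-lymphoid markers, and all of these kept it with the trends removed. The part of any cell type in the levels of Ly6a and Ly6c1 was not tested.

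Interferon response genes did not share that order as a list. Their sums were 374, 284 and 463 FPKM (420, 265 and 418 FPKM with the trends removed). Of the 25 genes, 24 were above 1 FPKM, against 54.2% of all symbols, and 13 were highest in tumour 1 and 12 in tumour 3. The highest were Psmb8, an immunoproteasome subunit, at 35.6, 45.7 and 86.6 FPKM, Irgm1 at 54.7, 38.5 and 45.9 FPKM, and Igtp at 18.8, 13.6 and 43.3 FPKM. Ifit2 and Rsad2 were the lowest, at 3.06 ± 2.38 and 1.43 ± 0.747 FPKM (SD, n = 3), and both were highest in tumour 1. Ly6e was lowest in tumour 1 as deposited and lowest in tumour 3 with the trends removed.

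**Figure D3:**
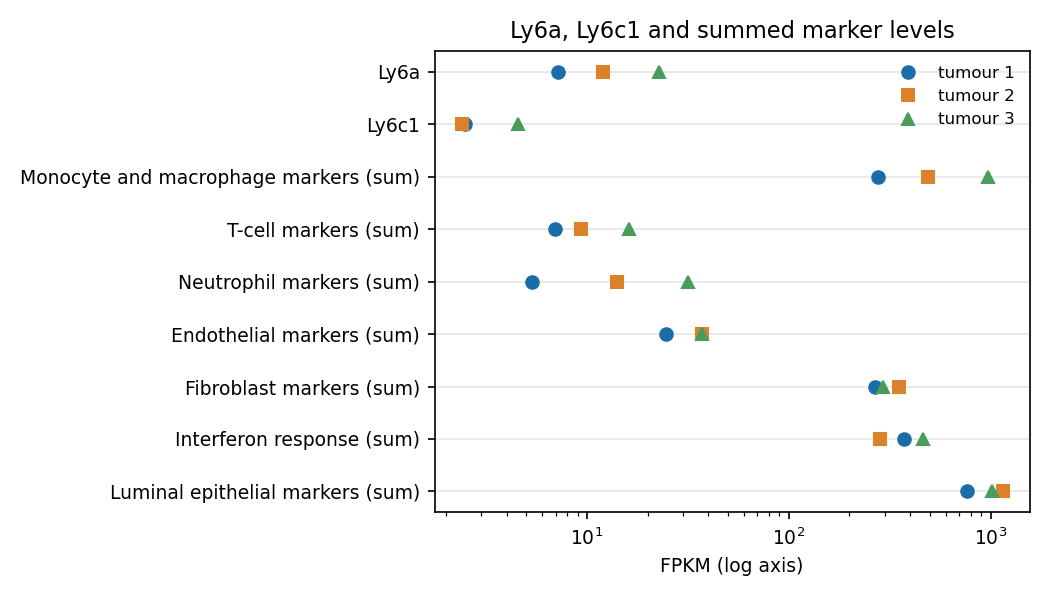
Levels of Ly6a and Ly6c1 and summed levels of marker lists in each tumour, in FPKM on a log axis. Monocyte and macrophage, T-cell, neutrophil and endothelial sums are lowest in tumour 1 and highest in tumour 3, as is Ly6a, with the endothelial sums of tumours 2 and 3 nearly equal, whereas the interferon response and fibroblast sums have other orders.

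Prom1 was 2.25-fold higher in tumour 2 than in tumour 3 (Cochran's Q adjusted p = 1.1e-169). Of all symbols, 0.922% passed in that direction and 14.3% with tumour 1 highest and tumour 3 lowest. Tumours 1 and 2 were close in Prom1, so which of them was highest is not read. With the trends removed Prom1 was at 28.9, 31.5 and 16.4 FPKM, and the ratio of 1.92 no longer passed. Without tumour 3 the ratio was 1.05. Cd24a was 1.84-fold higher in tumour 1 than in tumour 3 as deposited and did not pass, whereas 14.3% of symbols passed in that direction. It passed at 2.34-fold with median-of-ratios scaling and at 2.10-fold and 2.33-fold with equal totals, but only 1.30-fold remained with the trends removed (159, 174 and 134 FPKM). Tumour 3 was the lowest in Cd24a in each of these settings, and what varied was whether the ratio reached 2.

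Among the scalings, the spread of Epcam was smallest as deposited. With the trends removed it was at 281, 184 and 159 FPKM, highest in tumour 1, a 1.77-fold range, and median-of-ratios scaling gave 238, 192 and 180.2 FPKM. At a common FPKM total the ratio was 1.20. Ly6e was at 454, 392 and 314 FPKM with the trends removed, so that its lowest tumour changed, tumour 1 as deposited and tumour 3 after removal. GC content was highest in Ly6e (55.4%), Ly6d (54.0%) and Epcam (52.7%) and lowest in Cd24a (43.0%) and Prom1 (45.8%). The difference Ly6e minus Epcam changed little, at 0.69, 1.09 and 0.99 log2 units with the trends removed against 0.64, 1.09 and 1.04 as deposited.

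**Figure D4:**
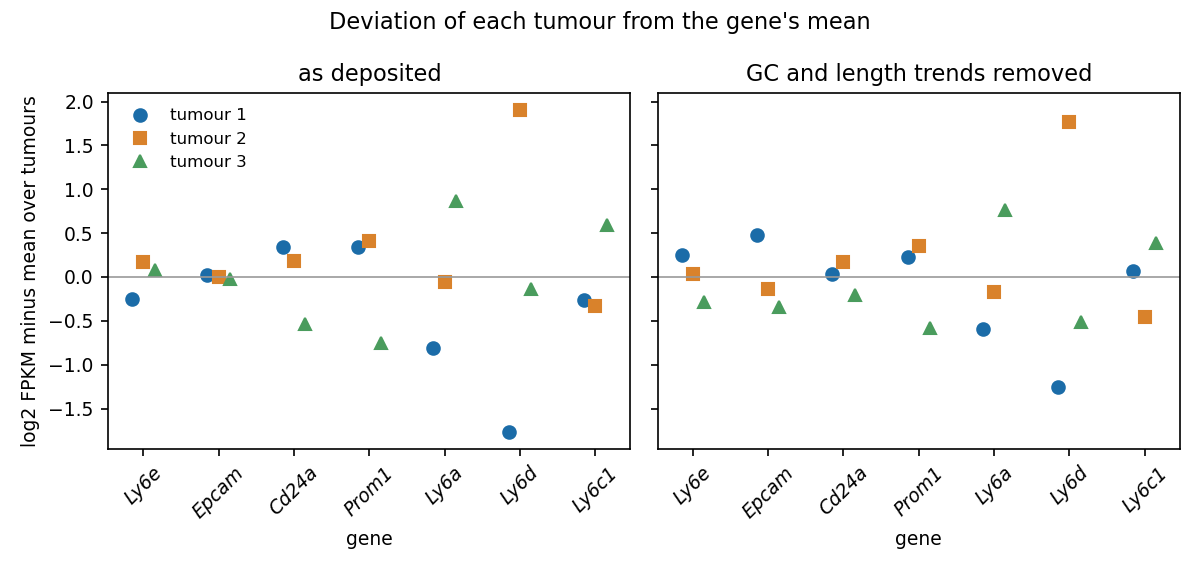
Deviation of each tumour from the mean of log2 FPKM over tumours, per gene, as deposited (left) and with GC and length trends removed (right). Ly6d and Ly6a keep the order of their tumours, Ly6e and Cd24a change theirs, and Epcam keeps its order with a wider spread.

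The partners of the members were read from lists of the same pathways. All 14 genes listed with Epcam were above 1 FPKM, against 54.2% of all symbols. They were led by the tetraspanin Cd9 at 147 ± 15.3 FPKM, the protease inhibitor Spint2 at 54.9 ± 7.52 FPKM and the tetraspanin Tspan8 at 46.4 ± 8.43 FPKM. Cldn7, the claudin that binds EpCAM, was at 19.5, 31.2 and 44.4 FPKM, and the inhibitor Spint1 was at 34.7 ± 5.13 FPKM. The presenilin gene Psen2 was at 3.97 ± 1.76 FPKM (SD, n = 3 each). The sheddase genes Adam10 and Adam17 were at 9.89 ± 3.17 and 11.5 ± 3.49 FPKM.

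Genes listed with Cd24a were split between kinases and receptors. The Src-family kinase genes Lyn, Src and Fyn were at 13.7 ± 3.31, 10.9 ± 2.47 and 9.06 ± 1.098 FPKM. Of the 9 genes, 4 were above 1 FPKM, against 54.2% of all symbols. The sialic acid-binding lectin gene Siglecg, which encodes a receptor of CD24 in the mouse, was at 0.0384 ± 0.0333 FPKM and L1cam at 0.0431 ± 0.0275 FPKM. Selp, the P-selectin gene, was at 0.251 ± 0.0904 FPKM (SD, n = 3 each). These 3 genes and Sele were below 1 FPKM.

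Prom2, the paralogue of Prom1, was at 11.5, 14.3 and 14.8 FPKM, with tumour 3 the highest. Arl13b, a GTPase of cilia whose product binds prominin-1, was at 8.07, 5.12 and 2.82 FPKM, and the deacetylase gene Hdac6 was at 3.58 ± 0.752 FPKM. Cdhr1, a photoreceptor cadherin, was below 1 FPKM at 0.270 ± 0.169 FPKM (SD, n = 3).

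The GPI anchor that Cd24a and the Ly6 proteins carry is made by a chain of enzymes in the endoplasmic reticulum. Of 28 listed genes 22 were above 1 FPKM, against 54.2% of all symbols, 5 were not separated and 1 was below. The highest were Dpm3, a subunit of the mannose donor synthase, at 35.5 ± 10.9 FPKM, Pigx at 21.9 ± 4.87 FPKM and Pigp at 15.3 ± 2.02 FPKM. Pigw was at 1.14 ± 0.0882 FPKM and Pigz, a mannosyltransferase, was the single gene below at 0.264 ± 0.0937 FPKM (SD, n = 3). Pigt and Pgap1 passed the test between tumours, 2 of 27 tested, against 32.5% of all symbols.

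Other surface antigens used for mammary stem and progenitor cells were above 1 FPKM in 12 of 18 cases and below in 2, against 54.2% above and 32.5% below over all symbols. Itga6 and Itgb1, the integrin chains known as CD49f and CD29, were at 80.96 ± 16.2 and 78.9 ± 36.3 FPKM, and Cd14 at 52.4 ± 15.9 FPKM. Lgr5, the R-spondin receptor, was at 0.0863 ± 0.0403 FPKM and Itga2 at 0.409 ± 0.118 FPKM (SD, n = 3 each). Itgb1 was at 113, 82.9 and 40.7 FPKM, lowest in tumour 3 like Cd24a and Prom1, and Itgb3 (CD61) was at 5.48, 10.5 and 15.1 FPKM, highest in tumour 3. Luminal epithelial markers, which check the tissue label, were above 1 FPKM in 11 of 13 cases, with Krt18 at 526 ± 143 FPKM. They summed to 766, 1149 and 1021 FPKM as deposited and to 993, 1052 and 815 FPKM with the trends removed. The lowest sum was thus in tumour 1 as deposited and in tumour 3 after removal.

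The genes most like each member over the 3 tumours were sought among up to 6283 symbols that averaged 5 FPKM or more over a locus of at least 300 bp, by the Euclidean distance between centred log2(FPKM + 0.1) values. A pattern of 3 points is shared by many genes, and 114 symbols lay within 0.1 of Epcam. The closest was Erbb2, at a distance of 0.0153. The closest to Cd24a was Rwdd1 (0.00898, with 64 symbols within 0.1), to Prom1 Morc4 (0.00115, with 3 within 0.1), to Ly6a the histone gene Hist1h4b (0.0250, with 4) and to Ly6c1 Arl6ip4 (0.0143, with 10). Tusc3 was the closest to Ly6e (0.00358, with 242). No symbol lay within 0.1 of Ly6d, whose closest were the chemokine gene Cxcl14 at 0.878 and the claudin gene Cldn10 at 1.27. Cxcl14 was at 5.42, 55.4 and 30.9 FPKM.

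Start regions from RefSeq were held for 3 of the 7 members, Epcam, Prom1 and Ly6c1. They cover 250 bases before to 50 after a start. Those of Ly6c1 and Ly6c2, whose levels were both highest in tumour 3, are shown with capitals for matches to TATAAA and CCAAT on either strand. The first is chr15:75048788-75049087 and the other chr15:75111922-75112221, both on the minus strand of GRCm38.p6 and read 5′ to 3′.
Ly6c1: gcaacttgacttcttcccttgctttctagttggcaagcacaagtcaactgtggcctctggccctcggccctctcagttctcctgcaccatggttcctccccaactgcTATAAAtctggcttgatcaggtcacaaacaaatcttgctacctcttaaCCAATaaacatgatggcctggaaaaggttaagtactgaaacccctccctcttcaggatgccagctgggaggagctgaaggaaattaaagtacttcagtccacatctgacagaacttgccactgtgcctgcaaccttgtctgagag
Ly6c2: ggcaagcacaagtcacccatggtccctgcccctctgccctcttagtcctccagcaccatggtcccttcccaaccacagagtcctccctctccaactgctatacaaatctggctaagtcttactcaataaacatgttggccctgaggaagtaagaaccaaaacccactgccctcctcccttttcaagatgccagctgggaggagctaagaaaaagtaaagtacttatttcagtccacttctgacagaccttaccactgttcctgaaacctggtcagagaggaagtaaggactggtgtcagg
The regions were 69.3% identical. TATAAA and CCAAT each occurred in this region of Ly6c1 and in neither case in Ly6c2. These are the first-listed starts. The other listed start region of Ly6c1 held neither motif, and the identity of the other pairs of Ly6c1 and Ly6c2 regions was 49.0% to 62.0%. Of 32851 such regions, 13.6% hold TATAAA and 37.4% hold CCAAT. The STAT site core TTCNNNGAA is held by 8.30% of regions and occurred in none of those listed for Epcam, Prom1, Ly6c1 or Ly6c2. A match is a description of letters and not a bound site.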

How the data were processed

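Total RNA of the 3 tumours was depleted of ribosomal RNA and made into directional libraries by random priming, per the labels' protocols. Per the file headers, the authors deposited 1 FPKM per gene beside its interval and quality status. TopHat, Cufflinks and mm9 are named in the submitters' processing notes, and no source used here gives their versions, annotation, strand setting or read length. Rows of repeated symbols were added up, and 182 symbols with any status other than OK were dropped. Half-widths of intervals were taken as 2 standard errors, and the square of FPKM over standard error, called implied fragments, summed to 11.7 M, 12.4 M and 13.4 M in tumours 1, 2 and 3. Intervals cover the counting and assignment error of a library only. Tumours were numbered in accession order.

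For levels and pairs, limma 3.58.1 (R 4.3.3) was used (intercept only, mean-variance trend, robust) on log2(FPKM + 0.1), with Benjamini-Hochberg adjustment over all symbols and a threshold of 0.05. A fold change on this scale understates that of low genes. A pair was called where both fits passed, a requirement added after seeing the values. GC content and length came from GENCODE vM21 by name (98.2% of symbols), and lowess (span 0.3) took out their trends in each tumour. Alternatives were other pseudocounts, filters, scalings and ratios, and leaving out each tumour. The fits were also run on simulated data with the same spread between tumours for every gene and with pairs against Epcam only. A shared member that varies as widely as Ly6d was not simulated, and no outcome of the simulation is used here.

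The members and lists were chosen with earlier results of these data known. Named genes are the members, the 3 highest and 2 lowest genes of a list, the highest genes around the Ly6 members and the closest in pattern. A gene that this rule names is not reported here. Others were chosen after their values were seen: Spint1, Cldn7, Adam10, Adam17, Selp, Itgb3, Ly6k, Ly6i, Krt14, Krt5, 2010109I03Rik, Pigt, Pgap1 and the family members and markers listed at 0.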

Additional observations from a re-analysis of the deposited data

How the results depend on the processing

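The levels of the 7 genes kept direction and call in 71 comparisons with an alternative, and in the other 6, all of Ly6d, the direction held and the call was lost. Removing the trends acts on deviations from the mean of a gene, so it leaves mean log2 levels and pair differences nearly unchanged. For Ly6e the mean was 8.443 as deposited and 8.442 after removal. That alternative could change a call but not a direction, and it does not correct GC or length effects between genes. All 7 genes were above 1 FPKM in some settings and 6 in the others. The count of symbols above 1 FPKM stayed within 1.5 times of 9778. That below it, 5864, became 109 when a mean of at least 0.5 FPKM was required and 9006 when all symbols with status OK were tested, which changes which low genes are tested. The count of symbols that differed between tumours, 3592, became 7586 with a ratio of at least 1.5 and 1839 with GC and length trends removed, and 632 to 3280 when a tumour was left out, lowest without tumour 1. The members among them, 3, became 5 with a ratio of at least 1.5 and 1 to 3 when a tumour was left out, lowest without tumour 3, when only Ly6d passed. With the trends removed 2 passed, Ly6a and Ly6d. Of the 21 pairs, 16 were called, 18 with either fit alone (an alternative chosen after seeing the data), and 15, 14 and 12 without tumours 1, 2 and 3. Calls were lost for Cd24a minus Ly6d without tumour 1 or 3, Epcam minus Ly6d and Ly6e minus Ly6d without tumour 3, Ly6a minus Ly6c1 without tumour 2, and Ly6e minus Cd24a and Ly6e minus Epcam without tumour 2 or 3. Ly6d minus Ly6c1, not called, ranged from -0.58 (without tumour 2) to 1.24 (without tumour 1) when a tumour was left out; the cause was not tested. Rescaling to a common FPKM total raised log2 levels by 1.65, 1.41 and 1.46 in tumours 1, 2 and 3. A gene listed at 0 may hold up to 3 fragments, at the median locus 0.0433, 0.0452 and 0.0406 FPKM in tumours 1, 2 and 3. No paired analysis between conditions was possible because the tumours form a single group. Only the pairs of genes were compared within each tumour.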
